A study of Arabidopsis thaliana with 12 samples.

Results

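A set of 10 genes of the galactinol, raffinose and inositol pathway were followed in dry and cold-stratified Arabidopsis thaliana seeds. They were given by locus and are 10 of the 32833 loci in the deposited expression table. They comprise 3 inositol-3-phosphate synthases (IPS1, IPS2 and IPS3), 3 galactinol synthases (GOLS1, GOLS2 and GOLS3), a stachyose synthase (RS4), a raffinose synthase (RS5) and 2 genes of the raffinose synthase family, SIP2 and DIN10. The study sequenced mRNA from seeds of the Col-0 ecotype in 4 groups with 3 libraries in each. Wild-type and atalkbh1a/1b seeds were each sampled dry (0 days) and after stratification, in which seeds lay in sterile water at 4 °C for 2 days. The atalkbh1a/1b genotype, called mutant-labelled here, is named for AtALKBH1A and AtALKBH1B, described by the series title as DNA adenine demethylases. All 12 libraries came from whole seeds, so fewer cells of a type and less RNA per cell cannot be told apart. No group was kept in water without cold, so cold, water uptake and time cannot be told apart.

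Raffinose family oligosaccharides are sucrose-based sugars that build up in maturing seeds with the acquisition of desiccation tolerance and are broken down early in germination. Inositol-3-phosphate synthase makes the precursor of myo-inositol, galactinol synthase joins myo-inositol to galactose from UDP-galactose, and raffinose and stachyose synthases pass that galactose on to sucrose and to raffinose. Galactosidases release it again. Myo-inositol also feeds phytate, the phosphate store of the seed. In Arabidopsis, GOLS1 and GOLS2 are known for induction by heat and drought and GOLS3 for induction by cold.

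In the TAIR10.1 assembly IPS1 is AT4G39800 (chr4:18469255-18472048, minus strand), IPS2 is AT2G22240 (chr2:9451605-9454300, minus) and IPS3 is AT5G10170 (chr5:3187277-3190321, minus). GOLS1 is AT2G47180 (chr2:19368798-19370478, minus), GOLS2 is AT1G56600 (chr1:21207537-21209635, plus) and GOLS3 is AT1G09350 (chr1:3019639-3021443, plus). RS4 is AT4G01970 (chr4:853922-857401, minus) and RS5 is AT5G40390 (chr5:16161449-16165453, plus). SIP2 is AT3G57520 (chr3:21288742-21293171, minus) and DIN10 is AT5G20250 (chr5:6833564-6836862, plus).

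The genes of the set that fell during stratification were IPS2, GOLS1 and GOLS2, and DIN10 rose from almost no reads. Shown beside them are SIP2, which is in the same family as DIN10, and IPS1. With all 12 libraries and no further scaling IPS1 did not pass the test. The 250 bases upstream of the annotated start of each of these genes are given. They were read from the TAIR10.1 genome with RefSeq annotation, on the strand of the gene and 5′ to 3′. Capitals mark a match on either strand to 1 of 4 motifs: the abscisic acid response core ACGTG, the heat shock element GAANNTTC, the drought and cold response core CCGAC and the seed RY element CATGCA. A match on the other strand appears as its reverse complement.
GOLS1 (chr2:19370479-19370728, minus strand): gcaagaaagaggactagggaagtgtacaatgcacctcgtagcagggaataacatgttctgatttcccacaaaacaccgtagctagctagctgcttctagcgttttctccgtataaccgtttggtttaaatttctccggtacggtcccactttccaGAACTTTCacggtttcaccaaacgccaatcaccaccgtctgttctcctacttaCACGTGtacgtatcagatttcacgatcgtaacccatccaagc
GOLS2 (chr1:21207287-21207536, plus strand): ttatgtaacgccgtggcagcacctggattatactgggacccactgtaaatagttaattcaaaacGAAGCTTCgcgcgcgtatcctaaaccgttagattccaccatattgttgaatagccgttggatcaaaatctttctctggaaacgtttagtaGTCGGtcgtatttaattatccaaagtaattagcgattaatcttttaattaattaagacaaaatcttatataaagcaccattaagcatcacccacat
IPS2 (chr2:9454301-9454550, minus strand): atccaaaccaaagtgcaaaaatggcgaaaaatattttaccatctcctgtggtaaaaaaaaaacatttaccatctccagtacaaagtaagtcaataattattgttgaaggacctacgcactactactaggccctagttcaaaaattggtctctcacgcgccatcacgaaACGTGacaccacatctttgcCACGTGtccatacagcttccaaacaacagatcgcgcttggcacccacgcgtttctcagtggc
IPS1 (chr4:18472049-18472298, minus strand): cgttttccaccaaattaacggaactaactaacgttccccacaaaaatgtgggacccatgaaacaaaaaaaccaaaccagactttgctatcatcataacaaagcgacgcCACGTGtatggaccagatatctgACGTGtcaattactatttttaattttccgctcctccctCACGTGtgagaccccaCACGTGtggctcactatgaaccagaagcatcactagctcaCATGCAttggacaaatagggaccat
SIP2 (chr3:21293172-21293421, minus strand): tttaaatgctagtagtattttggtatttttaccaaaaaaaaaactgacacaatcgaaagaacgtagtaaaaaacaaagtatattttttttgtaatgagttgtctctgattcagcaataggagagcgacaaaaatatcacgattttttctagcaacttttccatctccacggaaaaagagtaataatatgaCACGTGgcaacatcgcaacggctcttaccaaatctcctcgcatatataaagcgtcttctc
DIN10 (chr5:6833314-6833563, plus strand): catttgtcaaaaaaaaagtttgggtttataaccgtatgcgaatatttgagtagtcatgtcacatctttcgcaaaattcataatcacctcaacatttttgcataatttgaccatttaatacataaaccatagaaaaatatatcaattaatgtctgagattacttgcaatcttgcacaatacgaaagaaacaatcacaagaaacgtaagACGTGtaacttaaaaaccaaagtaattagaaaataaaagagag
The ACGTG core was present in 7 of the 10 windows (IPS1, IPS2, GOLS1, GOLS3, RS4, SIP2 and DIN10), against 22.9% of 27431 windows of the same length. CACGTG reads the same on both strands and counts as 1 site, which gives 4 separate sites in the IPS1 window and 2 in that of IPS2. GAANNTTC was found in 2 of 10 windows, those of GOLS1 and GOLS2, against 9.54% of all windows. CCGAC was found in 3 of 10 (GOLS2, GOLS3 and RS5) against 12% of all windows, and CATGCA in 2 of 10 (IPS1 and RS4) against 8.44%. The CATGCA of RS4 overlaps an ACGTG core, and the IPS2 window overlaps the neighbouring locus AT2G22241. These matches describe letters only. The core occurred both upstream of genes that fell (IPS2, GOLS1) and of DIN10, which rose.

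The libraries held 17.8 to 22.99 M reads (M, mega-reads), recovered from the steps of the lowest values. Reads from nuclear ribosomal RNA made up more than 10% of reads in 4 libraries: wild-type stratified 3, mutant-labelled dry 2, and mutant-labelled stratified 1 and 3, the last at 29.31%. The other 8 lay between 3.05% and 5.91%. Wild-type stratified 3 stood apart from its group, with Pearson r across loci of 0.964 and 0.952 against 0.991 between the other 2. Mutant-labelled stratified 2 also differed from its group, less strongly by r, with 0.9824 and 0.9743 against 0.9935 between the other 2. All 8 embryo markers (seed storage, oleosin and late embryogenesis genes) were at 1 RPKM or more in every library, and their summed level was 10799 to 44306 RPKM in wild-type stratified seeds against 98849 to 101140 RPKM in dry ones. In mutant-labelled seeds the sums were 13703 to 31649 RPKM stratified and 78483 to 107402 RPKM dry. The 2 endosperm markers went opposite ways in level: EPR1 was at 1856 to 2743 RPKM in dry and 314 to 1272 RPKM in stratified wild-type seeds, and MAN7 at 0.804 to 1.21 RPKM and 10.2 to 20.6 RPKM. In mutant-labelled seeds EPR1 was at 1681 to 2367 RPKM dry and 447 to 695 RPKM stratified, and MAN7 at 0.522 to 1.204 RPKM and 4.45 to 23.5 RPKM. In wild-type seeds the summed level of the 4 green leaf markers was 21.1 to 22.1 RPKM dry and 86.1 to 384 RPKM stratified. The mutant-labelled sums were 10.5 to 14.2 RPKM dry and 48.4 to 102 RPKM stratified. RBCS1A was the highest of the 4 in every library, and LHCB1.1 stayed under 1 RPKM. The part of these shifts in the results was not tested. The labels do not name the targeted loci. Of 3 AlkB-related loci examined, AT5G01780 was at 4.65 ± 0.412 RPKM in wild-type dry and 0.226 ± 0.0548 RPKM in mutant-labelled dry seeds (SD, n = 3), AT1G11780 was at 4.50 and 5.55 RPKM, and AT3G14140 had 4 reads or fewer in every library. In stratified seeds AT5G01780 had 204 to 319 reads in the wild-type libraries, replicate 3 included, and 11 to 23 reads in the mutant-labelled ones.

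In dry wild-type seeds the levels, in RPKM (reads scaled by transcript length and library total), ran GOLS1, IPS2, GOLS2, SIP2, IPS1, RS4, RS5 and DIN10, and neighbours in that order did not overlap between libraries. GOLS3 and IPS3 had no read there. After stratification the order in wild-type seeds was SIP2, DIN10, IPS1, GOLS1, IPS2, GOLS2, RS4 and RS5. SIP2 stood above DIN10 without overlap, but DIN10, IPS1 and GOLS1 overlapped as neighbours, as did IPS2, GOLS2 and RS4. Of the 10 genes, 7 passed the filter of 1 RPKM in at least 3 libraries and were tested. DIN10 passed only through the stratified libraries, and IPS3, GOLS3 and RS5 were not tested.

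**Figure D1:**
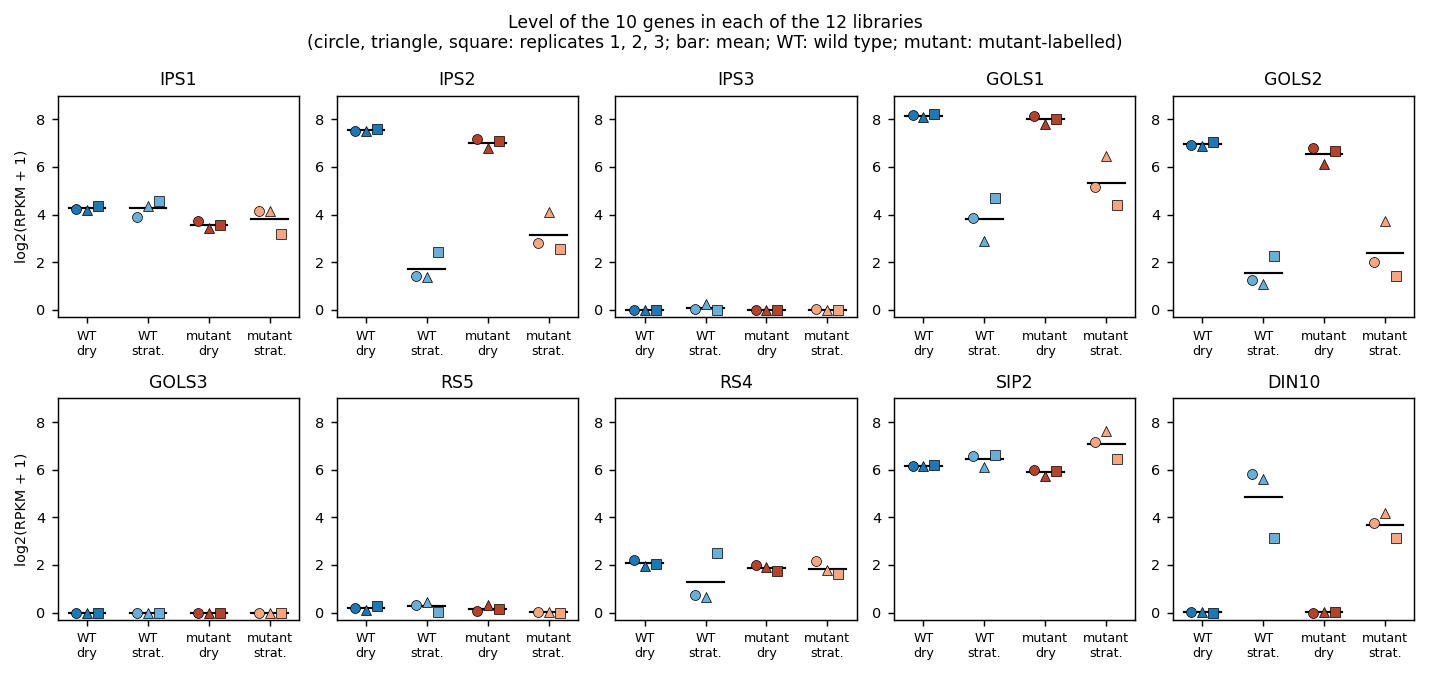
The vertical axis is log2(RPKM + 1) of each of the 10 genes in each library, by group, with replicates 1, 2 and 3 as separate symbols and the group mean as a bar. IPS2, GOLS1 and GOLS2 are lower in every stratified library than in any dry library of either genotype, and DIN10 is higher in every stratified library.

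The first question was what stratification does to these genes in wild-type seeds. Changes were tested with limma on log2(RPKM + 1) over 15145 genes, with Benjamini-Hochberg adjustment and a threshold of 0.05, so fold changes on that scale understate those of low genes. In wild-type seeds 1 of the 7 tested genes rose and 3 fell, where 49.8% of all genes tested rose and 18.9% fell (68.6% in either direction). In mutant-labelled seeds 2 rose and 3 fell, where 43.4% of all genes rose and 15.2% fell (58.6% in either direction). With libraries centred on their median, 1 of the 7 rose and 5 fell in wild-type seeds. Of the 15145 genes, 5870 rose and 5561 fell there (75.5% in either direction). Quantile normalization gave the same counts for the 7, where 5560 of all genes rose and 5750 fell (74.7% in either direction). The median log2 change of the 7 was −0.78 in wild-type and −0.036 in mutant-labelled seeds, beside 0.64 and 0.51 over all genes tested. DIN10 is 1 of the 7 and had to differ to pass the filter. Without overlap between dry and stratified libraries were 4 of the 7 in wild-type seeds, where 79.0% of all genes were, and 5 of the 7 in mutant-labelled seeds, where 60.0% were.

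Among the inositol-3-phosphate synthases, which catalyse the committed step to myo-inositol, IPS2 fell in both genotypes. IPS1 passed the test in neither with all 12 libraries and no further scaling. IPS2 was at 183, 181 and 193 RPKM in dry wild-type seeds and at 1.67, 1.58 and 4.34 RPKM after stratification. In mutant-labelled seeds it went from 145, 109 and 135 RPKM to 6.07, 16.2 and 4.81 RPKM. Neither genotype showed any overlap between dry and stratified libraries. The mean fell 73.4-fold in wild-type and 14.4-fold in mutant-labelled seeds, with log2 changes of −5.81 ± 0.37 (SE; limma adjusted p = 1.36e-09) and −3.87 ± 0.37 (limma adjusted p = 2.01e-07). The fold was 114 without wild-type stratified 3 and 23.8 without mutant-labelled stratified 2.

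IPS1 was at 18, 17.4 and 19.3 RPKM in dry wild-type seeds and 13.8, 19.6 and 22.5 RPKM after stratification. Its mutant-labelled values were 12.3, 9.90 and 10.8 RPKM dry and 16.6, 17 and 7.98 RPKM stratified. Dry and stratified ranges overlapped in both genotypes. The log2 change was 0.005 in wild-type seeds (95% interval −0.60 to 0.61; limma adjusted p = 0.99) and 0.24 in mutant-labelled seeds (−0.37 to 0.85; limma adjusted p = 0.482). In wild-type seeds it turned to −0.57 with libraries centred on their median (limma adjusted p = 0.0156) and to −0.46 with quantile normalization (0.0369). In mutant-labelled seeds these scalings gave −0.23 and −0.13. It passed the test there at 0.57 without mutant-labelled stratified 3 (limma adjusted p = 0.0256; 66.4% of all genes called) and at 0.52 without the libraries over 10% ribosomal RNA (0.0313; 74.2%). IPS3 had 1, 7 and 0 reads in the wild-type stratified libraries, 1 read in mutant-labelled stratified 1 and none in the other 8.

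Within the summed RPKM of the 3 synthases, IPS2 made up 91.1% ± 0.163 in dry wild-type seeds and 11.4% ± 4.42 after stratification (SD, n = 3). In mutant-labelled seeds its share was 92.1% ± 0.438 dry and 37.7% ± 11.01 stratified, and the stratified libraries ran from 26.8% to 48.8% against 7.42% to 16.2% in wild-type. A share within a library does not depend on scaling between libraries. IPS1 and IPS2 coding sequences are 85.7% identical, with a longest shared run of 38 bases.

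**Figure D2:**
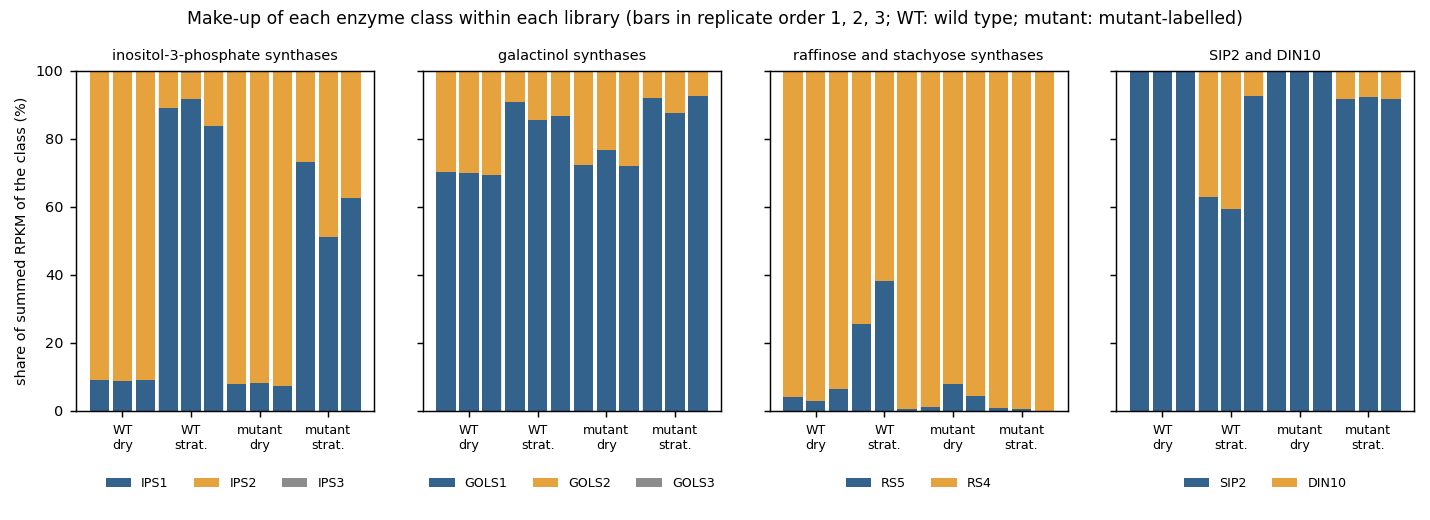
Share of each gene in the summed RPKM of its class, in percent, with 1 stacked bar per library. IPS2 holds over 90% of the synthase total in dry seeds and 7.42% to 48.8% in stratified seeds, where IPS1 holds most of the rest.

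Of the 3 galactinol synthases of the set, which make the galactosyl donor of the pathway, GOLS1 and GOLS2 fell and GOLS3 was not detected. GOLS1, the most abundant of the 10 genes in dry seeds, was at 286, 274 and 296 RPKM in dry wild-type seeds and at 13.5, 6.48 and 24.9 RPKM after stratification. The mutant-labelled values were 285, 226 and 259 RPKM dry and 34.7, 86.3 and 20.4 RPKM stratified. No stratified library reached a dry one. The log2 changes were −4.34 ± 0.45 (SE; limma adjusted p = 2.72e-07), or 19.1-fold lower in the mean, and −2.66 ± 0.45 (limma adjusted p = 8.95e-05), or 5.45-fold lower. The mutant-labelled fold was 9.32 without mutant-labelled stratified 2.

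GOLS2 was at 121, 118 and 132 RPKM in dry wild-type seeds and at 1.36, 1.11 and 3.84 RPKM after stratification. In mutant-labelled seeds the values were 110, 68.9 and 101 RPKM dry and 2.99, 12.1 and 1.64 RPKM stratified. Dry and stratified libraries again did not overlap, and the means were 58.7-fold and 16.7-fold lower. The folds were 99.9 without wild-type stratified 3 and 40.3 without mutant-labelled stratified 2. Log2 changes were −5.43 ± 0.45 (SE; limma adjusted p = 2.12e-08) and −4.16 ± 0.45 (limma adjusted p = 8.28e-07). GOLS3 had 0 reads in all 12 libraries, cold-treated seeds included. The floor of 3 reads per library corresponds to about 0.1 RPKM and covers counting error only.

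The share of GOLS1 in the total of GOLS1, GOLS2 and GOLS3 went from 69.8% ± 0.503 to 87.6% ± 2.85 in wild-type seeds and from 73.6% ± 2.69 to 90.8% ± 2.68 in mutant-labelled seeds (SD, n = 3), without overlap in either genotype. These shares were described and not tested. GOLS1 overlaps ARF1A1C on the opposite strand by 43 bases, and IPS2 overlaps 2 loci by 19 and 57 bases. Whether counting used strand is not given in the sources used here, so reads in those bases cannot be told apart.

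**Figure D3:**
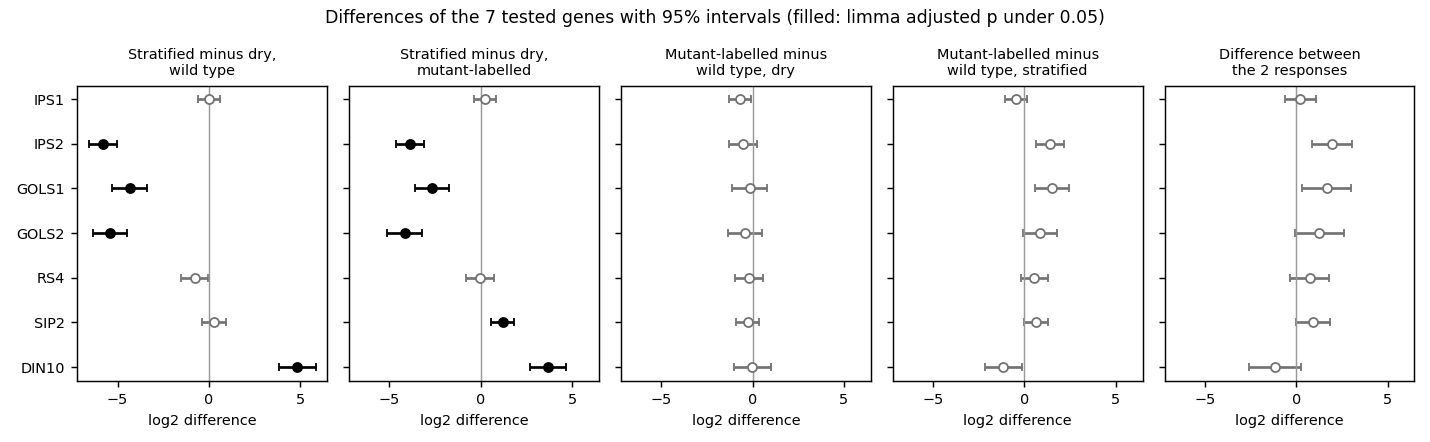
Log2 change of the 7 tested genes in each comparison, as limma estimates with 95% intervals. IPS2, GOLS1 and GOLS2 lie far below 0 and DIN10 far above 0 for stratification in both genotypes, while the genotype differences in dry seeds run from −0.68 to −0.004.

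The synthases that use galactinol were low throughout. RS4, the stachyose synthase of Arabidopsis seeds, was at 3.65, 2.92 and 3.14 RPKM in dry wild-type seeds and at 0.673, 0.579 and 4.61 RPKM after stratification. Replicate 3 lay above all dry values and the other 2 below all of them. Mutant-labelled values were 2.95, 2.80 and 2.34 RPKM dry and 3.44, 2.41 and 2.06 RPKM stratified, with overlap. The log2 change was −0.78 ± 0.36 in wild-type seeds (SE; limma adjusted p = 0.0622) and −1.38 without wild-type stratified 3, where it passed the test (72.2% of all genes called). It also passed at −1.36 with median centring (limma adjusted p = 0.0178), at −1.30 with quantile normalization (0.0146), at −1.30 with an offset of 0.1 RPKM (0.0325; 68.5% of all genes called) and at −0.78 with the replicate block (0.0489; 68.6%). In mutant-labelled seeds it was −0.036 (95% interval −0.79 to 0.72; limma adjusted p = 0.939).

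RS5, the main raffinose synthase known from Arabidopsis leaves, had 10, 6 and 12 reads in dry wild-type libraries and 16, 23 and 2 reads after stratification. The mutant-labelled libraries had 2, 13 and 6 reads dry and 2, 1 and 0 reads stratified. Its highest level was 0.359 RPKM, in wild-type stratified 2. Wild-type stratified 3, with 2 reads, lay with the mutant-labelled stratified libraries and not with its own group.

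SIP2 and DIN10 belong to the raffinose synthase family; SIP2 has been described as an alkaline alpha-galactosidase acting on raffinose, and DIN10 is known as a gene induced by darkness and sugar starvation. SIP2 was at 70.3, 69.8 and 72.6 RPKM in dry wild-type seeds and 95.1, 68.7 and 97.0 RPKM after stratification. In mutant-labelled seeds it was at 62.4, 52.4 and 60.9 RPKM dry and 141, 198 and 87.4 RPKM stratified. The groups overlapped in wild-type and did not in mutant-labelled seeds. The log2 change was 0.27 ± 0.31 in wild-type (SE; limma adjusted p = 0.438), where it turned to −0.30 with median centring and −0.39 with quantile normalization, and 1.19 ± 0.31 in mutant-labelled seeds (limma adjusted p = 0.00317). The difference between these changes was 0.92 and did not pass the test (limma adjusted p = 0.671).

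DIN10 had 1, 2 and 0 reads in dry wild-type libraries and 4025, 3157 and 547 reads after stratification, or 56.1, 47.3 and 7.78 RPKM. The mutant-labelled libraries had 0, 1 and 1 reads dry and 900, 1155 and 542 reads stratified, or 12.6, 16.9 and 7.87 RPKM. Summed over libraries and scaled by depth, the ratio of stratified to dry reads was 2433 in wild-type (exact 95% interval 832.3 to 11801, counting error only) and 1064 in mutant-labelled seeds (294.3 to 8793). The log2 changes were 4.83 ± 0.48 (SE; limma adjusted p = 1.76e-07) and 3.68 ± 0.48 (limma adjusted p = 6.8e-06). DIN10 passed the filter only through the stratified libraries and had to differ, so these p-values are not support for its rise. DIN10 overlaps AT5G20260 on the opposite strand by 82 bases.

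DIN10 made up 37.1%, 40.8% and 7.43% of the SIP2 and DIN10 total in the wild-type stratified libraries. In the mutant-labelled stratified libraries its share was 8.12% ± 0.212 (SD, n = 3, range 7.88% to 8.26%). In dry seeds it was 0.0205% in wild-type and 0.0206% in mutant-labelled libraries. Wild-type stratified 3 was the lone wild-type stratified library near the mutant-labelled values, though its AT5G01780 reads lay with its own group.

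The next question was whether the genotypes differed. In dry seeds none of the 7 genes passed the test, where 0.0462% of all genes did. Of the 7, 1 had an unadjusted limma p under 0.05, as did 227 of the 15145 genes tested. Yet 4 of the 7 (IPS1, IPS2, GOLS2 and SIP2) were lower in every mutant-labelled dry library than in any wild-type one, where 21.3% of all genes tested were lower without overlap. The IPS1 mean was 18.2 ± 0.934 RPKM in wild-type and 11.02 ± 1.22 RPKM in mutant-labelled dry seeds (SD, n = 3), a log2 difference of −0.68 (95% interval −1.29 to −0.077; limma adjusted p = 1). GOLS1 differed by −0.16 (95% interval −1.11 to 0.79; limma adjusted p = 1).

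In stratified seeds none of the 7 passed the limma test either, where 0.211% of all genes did. An unadjusted limma p under 0.05 was found for 3 of them and for 2799 of the 15145 genes tested. IPS2 was the 1 gene whose libraries did not overlap, where 5.06% of all genes did not. Its level was 2.53 ± 1.57 RPKM in wild-type and 9.01 ± 6.22 RPKM in mutant-labelled stratified seeds (SD, n = 3), a log2 difference of 1.42 ± 0.37 (SE; limma adjusted p = 0.12). GOLS1 was at 14.98 ± 9.32 and 47.1 ± 34.7 RPKM, a difference of 1.52 ± 0.45 (limma adjusted p = 0.152). GOLS2 differed by 0.84 (limma adjusted p = 0.316), SIP2 by 0.64 (0.272) and RS4 by 0.55 (0.421). DIN10 was at 37.1 ± 25.7 and 12.5 ± 4.54 RPKM, a difference of −1.16 ± 0.48 (limma adjusted p = 0.217).

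These genotype values moved with single libraries. Without wild-type stratified 3, 4 of the 7 genes were higher and 1 lower in mutant-labelled stratified seeds, where 5.48% of all genes were higher and 24.3% lower (29.7% in either direction): IPS2 by 1.76 (limma adjusted p = 9.79e-05), GOLS1 by 1.96 (0.000109), GOLS2 by 1.21 (0.0122), RS4 by 1.15 (0.000687) and DIN10 by −2.02 (3.33e-07). Without mutant-labelled stratified 2 none was called, and the differences were 0.95 for IPS2 (limma adjusted p = 0.0882), 0.97 for GOLS1 (0.127) and 0.17 for GOLS2 (0.749). With the 4 libraries over 10% ribosomal RNA left out, 6 of the 7 were called, where 42.4% of all genes were, and mutant-labelled stratified seeds were then 1 library assumed to vary like the others. With the stratified libraries over 10% kept alone, the wild-type arm was 1 library, the one that stands apart, also assumed to vary like the others. None was called there (0.845% of all genes), and the values were −0.58 for GOLS2, −0.60 for RS4 and 0.32 for DIN10. Quantile normalization called 2, IPS2 by 1.68 and SIP2 by 0.88, where it called 2.07% of all genes.

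**Figure D4:**
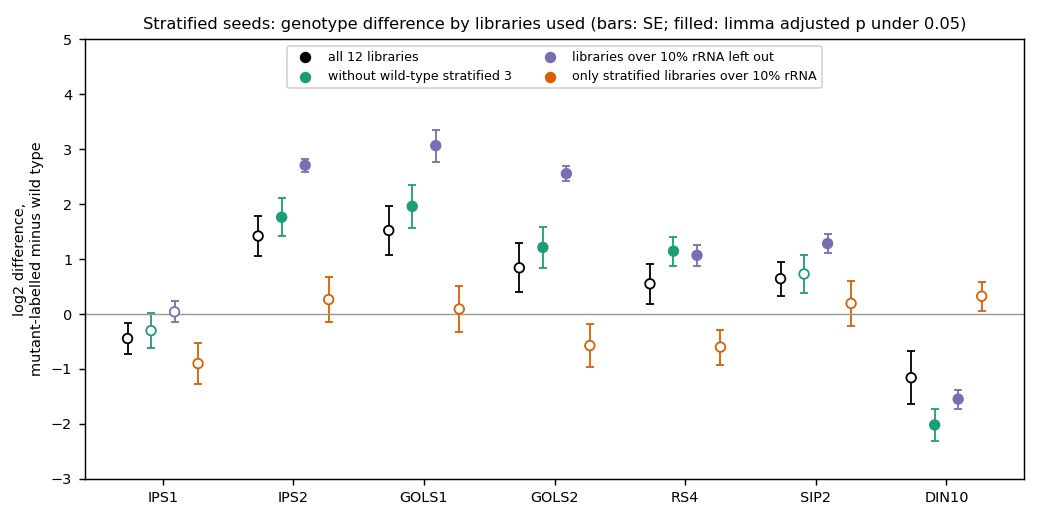
Log2 difference between mutant-labelled and wild-type stratified seeds for the 7 tested genes, with SE bars, in 4 choices of libraries, 2 of which leave 1 arm with 1 library; filled points passed the limma test. No point is filled with all 12 libraries, 5 are without wild-type stratified 3, 6 are without the libraries over 10% ribosomal RNA, and none is with those stratified libraries alone.

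The response to stratification was then compared between genotypes by the interaction. None of the 7 passed the limma test, where 0.0264% of all genes did. An unadjusted limma p under 0.05 was found for 3 of them and for 1058 of the 15145 genes tested. The log2 change was less negative in mutant-labelled seeds by 1.94 ± 0.52 for IPS2, 1.68 ± 0.64 for GOLS1 and 1.27 ± 0.63 for GOLS2 (SE; limma adjusted p = 0.671 for each). Without wild-type stratified 3 the interaction was called for 5 of the 7, where 15.5% of all genes were, and without the libraries over 10% ribosomal RNA for 6, where 35.2% were and mutant-labelled stratified seeds were 1 library. With the stratified libraries over 10% alone, which leaves 1 wild-type stratified library, none was called (0.396% of all genes), and the values were 0.79 for IPS2, 0.25 for GOLS1 and −0.15 for GOLS2. Without mutant-labelled stratified 2 they were 1.47, 1.13 and 0.59.

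Genes around the pathway were taken from 5 lists holding 65 genes, of which 46 were tested. After stratification 13 rose and 17 fell in wild-type and 12 rose and 16 fell in mutant-labelled seeds, beside 49.8% and 18.9% of all genes in wild-type and 43.4% and 15.2% in mutant-labelled seeds. Of these genes, 5 passed the filter only through the stratified libraries and had to differ: AT1G55740, VTC4, IMPL2, AT3G45090 and SUS2, all among those that rose. None of the 46 was called between genotypes in dry seeds (0.0462% of all genes), in stratified seeds (0.211%) or in the interaction (0.0264%). These counts used all 12 libraries, no further scaling and no replicate block. Without wild-type stratified 3, 7 were called in stratified seeds (29.7% of all genes) and 3 in the interaction (15.5%). Without the libraries over 10% ribosomal RNA, mutant-labelled stratified seeds were 1 library. Counts of the 46 from that fit are listed only with the other processing settings, and no conclusion is drawn from them. Of the 3 tested genes among 8 listed as other galactinol and raffinose synthase family members, 1 rose and 2 fell in both genotypes. Among the 8, AT3G28340 and AT3G06260 are named GATL10 and GATL4 in the deposited table and were not tested. AT1G55740, named RFS1 in the deposited table and seed imbibition 1 in RefSeq, went from 0.0795 ± 0.0252 to 36.4 ± 9.01 RPKM in wild-type seeds (SD, n = 3), a difference that its place among the tested genes required. GOLS10 fell from 10.1 to 1.29 RPKM (−2.29; limma adjusted p = 2.73e-06), and GOLS5 fell by 2.21 on the log2 scale. Stratified means of GOLS5 were 0.138 ± 0.103 RPKM in wild-type and 0.607 ± 0.468 RPKM in mutant-labelled seeds (SD, n = 3). It could reach the filter only through the dry libraries, so it too had to differ.

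Alpha-galactosidases release galactose from the oligosaccharides. Of 3 tested of 4, 1 rose and 2 fell in wild-type seeds (49.8% and 18.9% of all genes). In mutant-labelled seeds 1 rose and 0 fell (43.4% and 15.2%). AGAL1 rose from 4.24 ± 0.171 to 17.7 ± 6.38 RPKM in wild-type seeds (SD, n = 3; limma adjusted p = 0.000158). AGAL3 fell from 52.1 to 28.7 RPKM (limma adjusted p = 0.0172), and AT3G26380 fell by 0.82 on the log2 scale.

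Of 20 tested inositol and phytate genes out of 23, 8 rose and 4 fell in wild-type seeds (49.8% and 18.9% of all genes) and 7 rose and 5 fell in mutant-labelled seeds (43.4% and 15.2%). MIOX2, which oxidises myo-inositol, rose from 1.32 to 27.6 RPKM in wild-type seeds (log2 change 3.39 ± 0.41, SE; limma adjusted p = 1.38e-06). VTC4, an inositol monophosphatase and 1 of the 5 that passed only through the stratified libraries, was at 0.199 RPKM dry and 8.01 RPKM stratified. INT1, a vacuolar myo-inositol exporter, rose by 2.16 in each genotype on the log2 scale. AT5G60760, annotated as an LPA1 homolog, fell from 182 ± 5.95 to 21.3 ± 10.7 RPKM (limma adjusted p = 1.45e-06), and PIS2, a phosphatidylinositol synthase, fell from 17.4 to 6.53 RPKM.

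Of 12 tested UDP-galactose and sucrose supply genes out of 18, 2 rose and 5 fell in each genotype, beside 49.8% and 18.9% of all genes in wild-type and 43.4% and 15.2% in mutant-labelled seeds. SUS3, a sucrose synthase, fell from 170 ± 4.81 to 21.0 ± 6.27 RPKM in wild-type seeds (SD, n = 3; log2 change −2.99 ± 0.35, SE; limma adjusted p = 1.11e-06). UGE5, a UDP-glucose epimerase that makes UDP-galactose, fell from 30.4 to 3.30 RPKM (limma adjusted p = 3.18e-07). SUS2, another of those 5, was at 0.745 RPKM dry and 2.54 RPKM stratified.

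Regulators known to act on these genes or on their motifs were taken as a list of 12, of which 8 were tested. In each genotype 1 rose and 4 fell, beside the same shares of all genes (49.8% and 18.9%, 43.4% and 15.2%). HSFA9, a seed heat stress factor, fell from 121 ± 3.89 to 1.74 ± 1.38 RPKM in wild-type seeds (SD, n = 3; log2 change −5.59 ± 0.40, SE; limma adjusted p = 4.86e-09) and from 91.6 to 5.52 RPKM in mutant-labelled seeds. ABI5, a factor that binds the ACGTG core, fell from 177 to 36.0 RPKM (limma adjusted p = 3.19e-05), while ABI3, which acts through the RY element, rose from 22.2 to 63.8 RPKM (limma adjusted p = 0.000248). DREB2A fell by 2.45 ± 0.708 and HSFA1B by 1.53 ± 0.265 on the log2 scale in wild-type seeds (SE). Stratified DREB2A spread widely, at 50.06 ± 55.5 RPKM in wild-type and 88.85 ± 114.5 RPKM in mutant-labelled seeds (SD, n = 3). HSFA1A (−0.57) and HSFA1D (0.32) did not pass the test. HSFA2 was at 122, 33.3 and 1.75 RPKM in wild-type and 1.38, 232 and 1.498 RPKM in mutant-labelled stratified seeds, against 14.98 to 21.73 RPKM in dry libraries. DREB1A, DREB1B, DREB1C and HSFA3 did not pass the filter on low values.

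**Figure D5:**
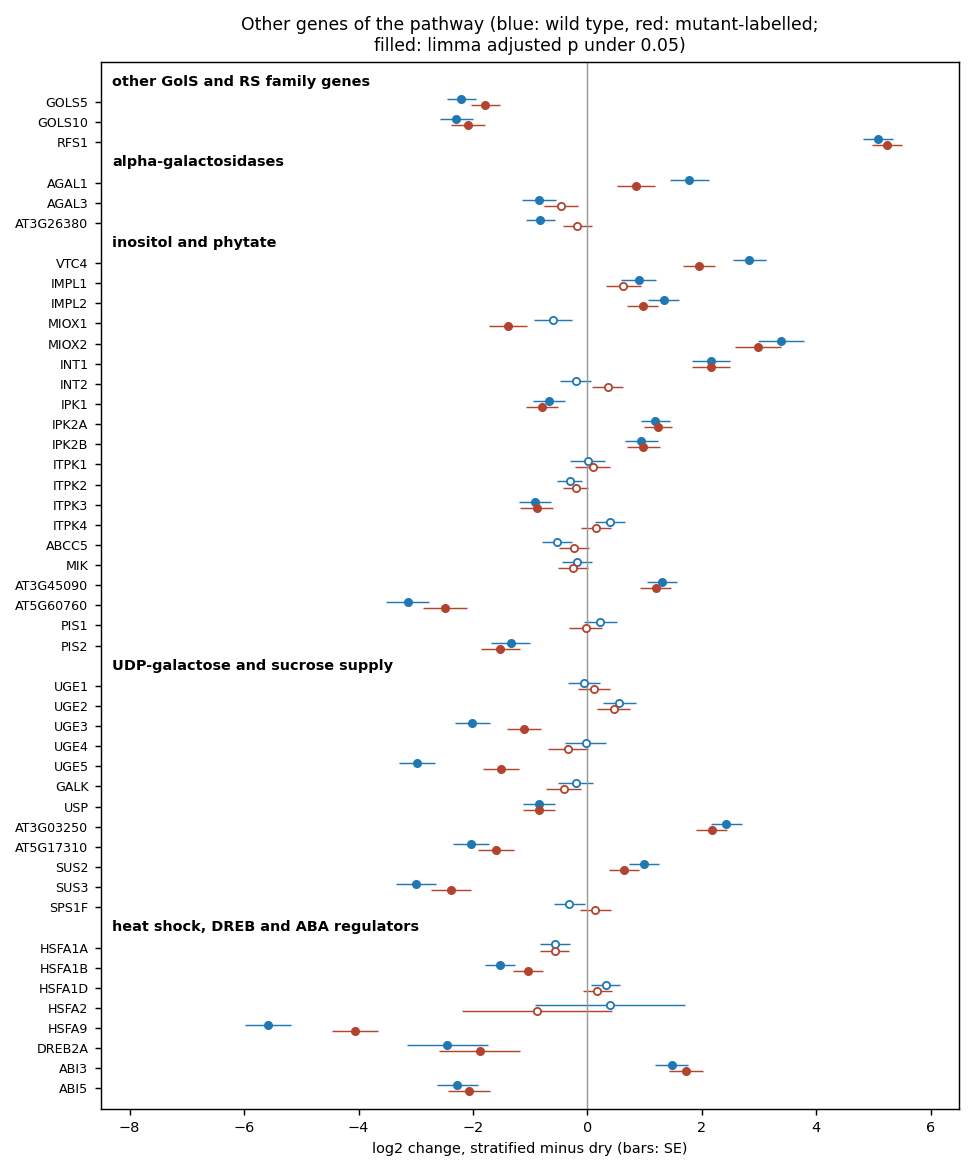
Log2 change with stratification in wild-type and mutant-labelled seeds for the tested genes of the 5 surrounding lists. Of 46 genes, 13 rise and 17 fall in wild-type seeds and 12 rise and 16 fall in mutant-labelled seeds.

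The gene with the highest mean RPKM over the 12 libraries was taken from each class. This was IPS2 among the inositol-3-phosphate synthases, although IPS1 held the larger share in stratified seeds. Genes with the most similar pattern were listed by Pearson r of log2(RPKM + 1) over those libraries. They came from the 10786 other genes (10787 for RS4) averaging 5 RPKM or more in some group. The libraries share the contrast of dry and stratified seeds, so high values are common. HSFA9 (r = 0.998), AT4G03200 (0.998) and ASN1 (0.997) were nearest to IPS2, which had 1321 genes over 0.9. Nearest to GOLS1 were AT5G12030, a class II small heat shock protein (0.998), AT2G34740, a probable protein phosphatase 2C (0.996), and HSA32 (0.995), with 1279 genes over 0.9. RS4 had 17 genes over 0.9, led by AT4G39675 (0.946), the histone AT2G28720 (0.941) and UGT74F2 (0.940). SIP2 had 60, led by AT5G02630 (0.971), GLT1 (0.963) and the aspartyl protease AT1G03220 (0.955).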

How the data were processed

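Expression of mRNA was measured in 12 seed libraries. The authors deposited RPKM values per locus; per the labels' protocols mRNA was selected on oligo-dT and prepared with a strand-preserving kit, and STAR, DESeq2 and TAIR10 appear in the submitters' processing notes. Which program counted reads, its strand setting and all versions: not given in the sources used here. Of 79983 low RPKM values in the deposited table, 99.33% were whole reads within 0.05 of a read, where 10% would be by chance, and reads were recovered from them. RPKM are not counts, so limma 3.58.1 (R 4.3.3) was fitted to log2(RPKM + 1) with 4 group means and a trend of variance on level. It left 8 residual degrees of freedom before moderation, and tests were 2-sided. The fit used the 15145 genes that reached 1 RPKM in 3 or more libraries. It was also run on simulated data with independent errors, which hold no shift shared by the genes of a library. The members, lists and tests were chosen with earlier results of these data known. Named are all 10 genes, the 3 most similar genes for 1 gene per class, and up to 2 called genes per list, comparison and direction, the largest in log2 change, with all regulators. Group sizes are 3, and separate plants or batches behind the replicates are not stated in the labels, so p-values reflect only how these samples spread, possibly technically. Replicate numbers come from titles; of 18 pairs of same-numbered libraries 2 had correlated deviations over 0.1 (range −0.315 to 0.197), so they were not treated as pairs. Alternatives were the offset, the filter, scaling, a replicate block, ribosomal RNA, the groups in the fit and each library left out. The precision is limited by depths of 17.8 to 22.99 M reads; intervals and the 3-read floor cover counting error only, since the reads carry no molecular identifiers.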

Additional observations from a re-analysis of the deposited data

How the results depend on the processing

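Over 35 results for single genes, 728 recomputed log2 changes gave 666 with the same direction and side of the threshold, 32 newly past it, 0 no longer past it and 30 in the other direction. The falls of IPS2, GOLS1 and GOLS2 and the rise of DIN10 were called in both genotypes under every alternative run. DIN10 passed the filter only through the stratified libraries and had to differ. The counts of genes called between genotypes were not stable. The counts for all 15145 genes moved in the same settings. In stratified seeds 32 became 116 with median centring, 313 with quantile normalization and 304 with the replicate block. Without wild-type stratified 3 the count was 4505 there and 2342 in the interaction, where it had been 4. The highest all-gene counts in these comparisons came without the ribosomal RNA libraries, which leaves mutant-labelled stratified seeds with 1 library. In stratified seeds, 0 of the 7 became 2 with quantile normalization, 6 with the libraries over 10% ribosomal RNA left out, and 0 to 5 with 1 library left out (5 without wild-type stratified 3). Of the 46 surrounding genes, 0 became 1 with median centring, 1 with quantile normalization, 1 with the replicate block, 23 without the ribosomal RNA libraries and 0 to 7 with 1 library left out. In the interaction, 0 of the 7 became 6 without the ribosomal RNA libraries and 0 to 5 with 1 library left out, and 0 surrounding genes became 18 and 0 to 3. Over all genes, 32 called in stratified seeds became 12 to 6420, 7 in dry seeds 3 to 84 and 4 in the interaction 0 to 5325. In wild-type stratification 4 of the 7 became 6 with median centring and quantile normalization and 4 to 5 with 1 library left out. The count was 5 with the offset of 0.1, the replicate block and the ribosomal RNA libraries left out. In mutant-labelled stratification 5 became 5 to 6 with 1 library left out. Fitting the compared groups alone gives no interaction.

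Median centring moved the median of all genes by −0.58 in wild-type and −0.47 in mutant-labelled stratification, and quantile normalization by −0.65 and −0.53; the share of higher calls went from 72.5% to 51.4% and 49.2% in wild-type and from 74% to 49.3% and 48.1% in mutant-labelled seeds. With these, stratification changed in sign for IPS1 (−0.57 and −0.46 in wild-type, −0.23 and −0.13 in mutant-labelled seeds) and for SIP2 in wild-type seeds (−0.30 and −0.39), and dry genotype differences for DIN10 (0.073 and 0.008) and, with quantile normalization, GOLS1 (0.012). Leaving out ribosomal libraries gave −0.14 for IPS1 stratification in wild-type seeds and 0.04 for its genotype difference in stratified seeds. With the ribosomal RNA taken out of the total, RS4 in mutant-labelled seeds was 0.089. With the stratified libraries over 10% alone, RS4 stratification was 0.41 in wild-type and 0.002 in mutant-labelled seeds, genotype differences in stratified seeds were −0.58 for GOLS2, −0.60 for RS4 and 0.32 for DIN10, and the interaction was −0.22 for IPS1, −0.15 for GOLS2, −0.41 for RS4 and 0.33 for DIN10. With 1 library left out, stratification ran from −0.14 to 0.19 for IPS1 in wild-type seeds and from −0.19 to 0.079 for RS4 in mutant-labelled seeds, and the dry genotype difference of DIN10 from −0.014 to 0.006. The cause was not tested. Depth limits GOLS3, IPS3 and RS5, which had 23 reads or fewer in every library.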

Other observations

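The loci annotated as UDP-glucose pyrophosphorylase, which makes UDP-glucose for galactose and sucrose chemistry, changed in opposite directions with stratification. AT3G03250 was at 2.59, 2.04 and 2.47 RPKM dry and 17.8, 17.96 and 15.6 RPKM once stratified in the wild type (log2 change 2.43 ± 0.28, SE; limma adjusted p = 7.78e-07). AT5G17310 went from 37.5, 37.6 and 41.6 RPKM to 5.31, 8.02 and 15.2 RPKM (−2.04 ± 0.32; limma adjusted p = 2.24e-05). AT3G03250 thus made up 5.74% ± 0.657 of their summed RPKM dry and 65.6% ± 13.5 stratified in the wild type, and 5.21% ± 0.487 and 53.3% ± 6.60 in mutant-labelled seeds (SD, n = 3). This pair was set side by side after its values were seen, and the share was not tested.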
